A study of Mus musculus with 8 samples.

Results

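The comparison described here is DMXAA against DMSO in islets from mice labelled as lacking STING. Its members are the 4 libraries whose labels give that genotype, 2 with DMSO and 2 with DMXAA, out of 8 libraries in all. The other 4 libraries, from wild-type islets with the same treatments, serve to place these values. They also entered the main fit of all 8 libraries, and so its filter on low counts, scaling and estimate of spread. Pancreatic islets, small clusters of endocrine cells, were taken from mice of 25 to 30 weeks, picked by hand after collagenase digestion and left overnight in medium. They were then kept for 3 h with the solvent DMSO or with 50 µg/mL DMXAA, and poly(A) RNA was sequenced. The 4 groups were thus wild type with DMSO, wild type with DMXAA, Sting-/- with DMSO and Sting-/- with DMXAA, with 2 libraries each. The labels describe neither the allele, the strain nor the sex, and they do not say whether replicates were separate mice, so p-values rest on the spread among these particular libraries, which may be technical.

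DMXAA is a xanthenone acetic acid, first developed as a vascular-disrupting agent, that binds mouse STING, an adaptor protein of the endoplasmic reticulum that sits downstream of the cytosolic DNA sensor cGAS. Active STING recruits the kinase TBK1, which switches on interferon genes and, through NF-kB, inflammatory cytokines. Besides beta, alpha and delta cells an islet holds a dense bed of fenestrated capillaries with pericytes and macrophages, and hand-picked islets can carry acinar tissue and lymphoid cells along. The question is thus which genes differ with DMXAA where its known target is absent by its label, and which of these mark a cell type.

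Total counts were 15624020 and 18500845 in the DMSO libraries and 19419236 and 19601850 in the DMXAA libraries, and 18207064 to 18802114 in the wild-type ones. Levels below are in CPM, counts brought to a common library size after TMM scaling, and are given in the order replicate 1, replicate 2. The 2 libraries of a group differed by more than sampling noise (chi-square per degree of freedom 7.41 for DMSO and 59.8 for DMXAA), so neither is a copy of the other, and each was counted as 1 library. The transcript of the targeted gene, Sting1, overlapped between the genotype labels: the DMSO libraries had 48 and 19 counts of it and the DMXAA libraries 35 and 27, against 39, 41, 23 and 39 in wild-type libraries. A count over a whole gene does not show whether protein was made, so the label could not be checked from it, and the libraries are called knockout-labelled. Hormone transcripts were abundant in every library (Ins2 at 104193 CPM or more), and so the tissue label held.

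Of 17055 genes tested, 64 (0.375%) differed between DMXAA and DMSO in the knockout-labelled libraries at an adjusted p under 0.05, 36 lower (0.211%) and 28 higher (0.164%). Of the 36 lower genes 14 were members of the B cell, plasma cell or class II MHC lists. Of the 28 higher genes 7 were members of the endothelial, VEGF or Notch lists. None of the 52 listed interferon-stimulated genes, of 24 tested cytokine genes or of the hormone and islet transcription factor genes was among the 64. Ifi209, which is outside the interferon list, was among the lower genes, and in the wild type it was higher with DMXAA (a log2 change of 3.78). In the 34 lower genes with a count in a DMXAA library the log2 fold change ran from -1.71 to -6.54, and the median over all 36, with the 2 genes at 0 there taken at their bound, was -4.27. The rises were smaller, from 0.76 to 2.07 with a median of 0.99. Below, "fell by" and "rose by" give the log2 fold change of a gene that passed the test. In all 64 genes the DMXAA libraries lay apart from the DMSO libraries, as did 18.1% (higher) and 17.7% (lower) of all genes tested.

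**Figure D1:**
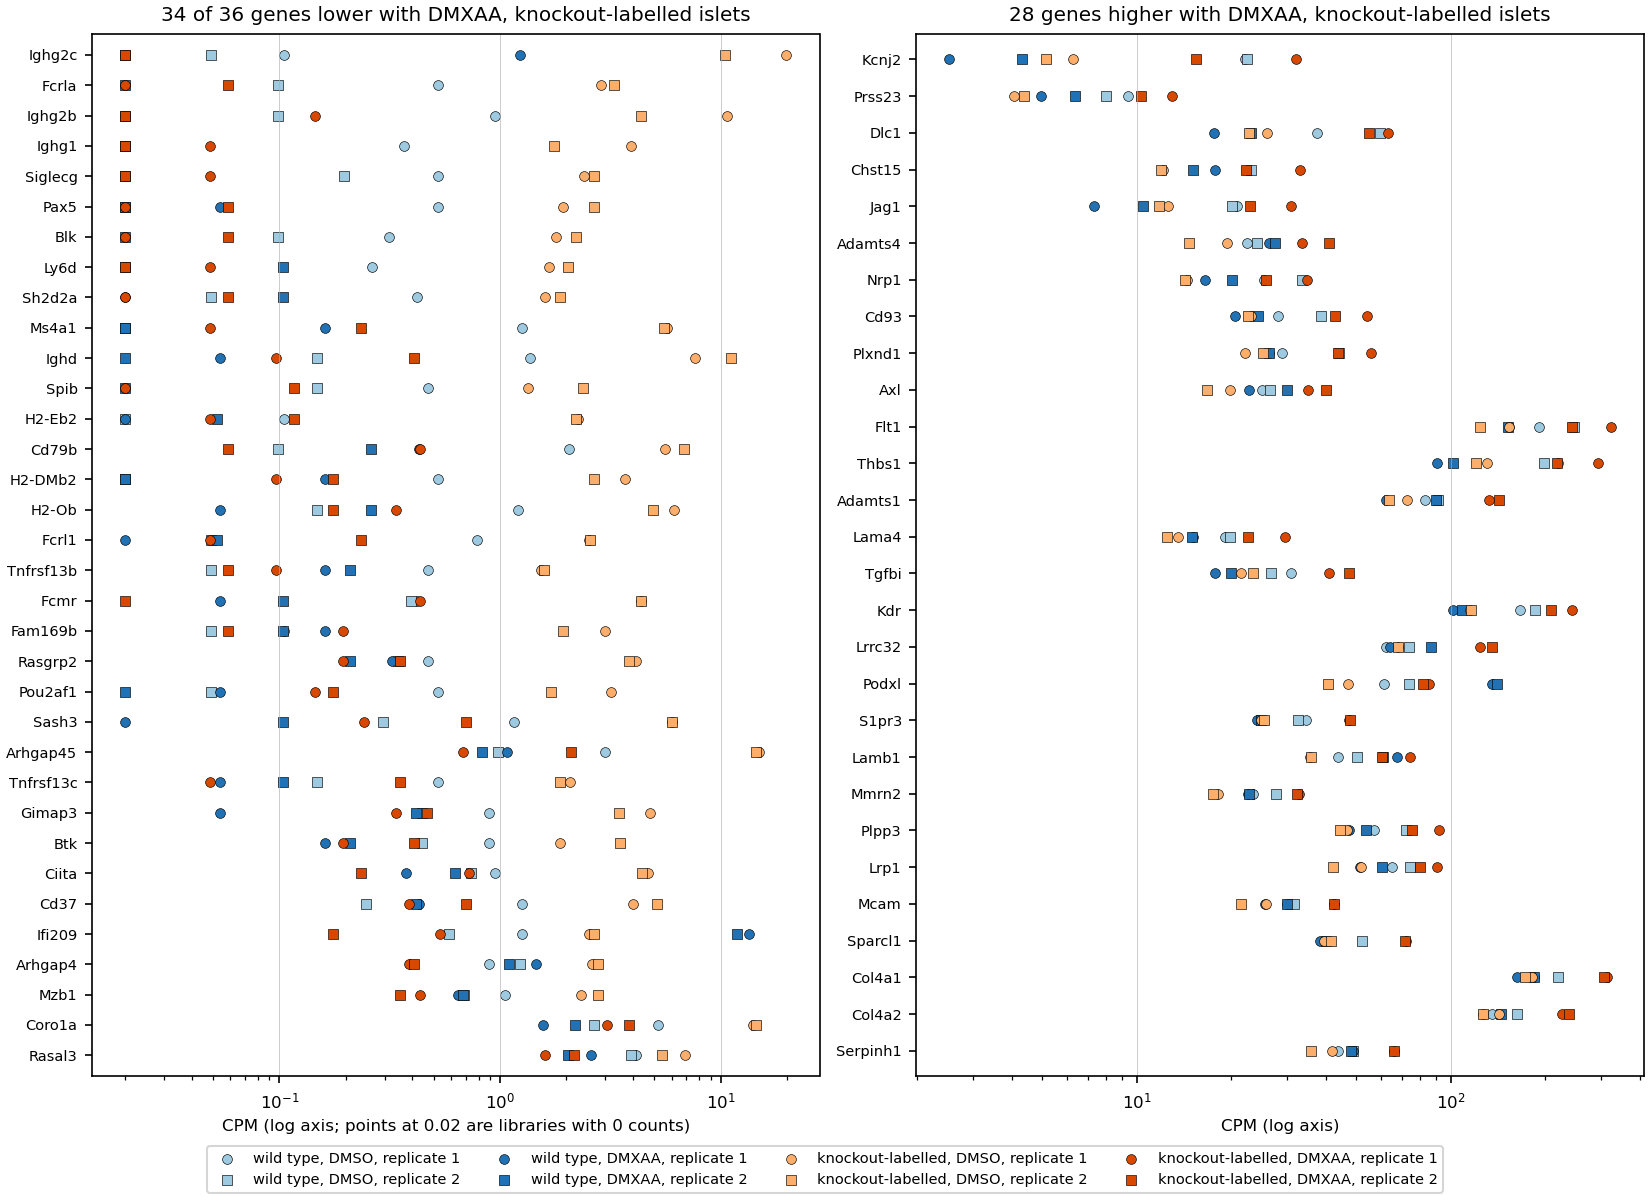
Level in every library, in CPM on a log axis, of 34 of the 36 lower genes (left) and the 28 higher genes (right); circles are replicate 1, squares replicate 2, and points at 0.02 are libraries with 0 counts. In all lower genes shown except Ifi209 both knockout-labelled DMSO libraries lie to the right of the other 6, and in 25 of the 28 higher genes they lie to the left of both wild-type DMSO libraries. The choice of genes by the knockout-labelled contrast favours such placements.

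These calls depended on the test. The same counts gave 154 genes with DESeq2 and 0 with limma-voom, where 1165 genes had an unadjusted p under 0.05 (1245 with edgeR). A filter asking for 1 CPM in at least 4 libraries also gave 0, with 997 genes under 0.05 unadjusted, and it removed 31 of the 36 lower genes. Of the 28 higher genes 27 were also called by both DESeq2 and an edgeR fit of the 4 knockout-labelled libraries alone, and of the 36 lower genes 27. None of the 64 was called in all 8 fits that left out 1 library, and all 64 kept their direction in every fit that tested them.

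**Figure D2:**
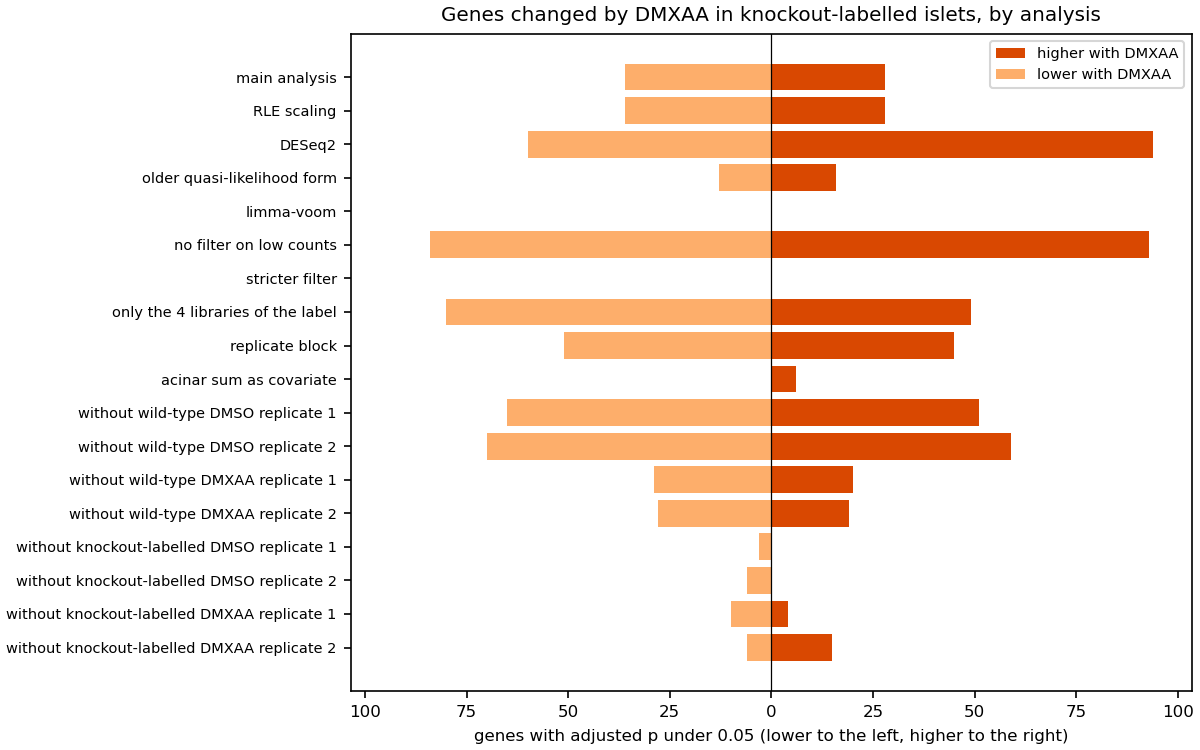
Number of genes called lower (left of 0) and higher (right of 0) with DMXAA in the knockout-labelled libraries under each way of analysing the counts. The number runs from 0 with limma-voom or the stricter filter to 177 without a filter, and is 3 or 6 when 1 of the knockout-labelled DMSO libraries is left out.

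Among the lower genes, several genes of B cell surface proteins fell. Ms4a1, which encodes CD20, was at 5.74 and 5.55 CPM in the DMSO libraries and at 0.0484 and 0.234 CPM in the DMXAA libraries (a log2 change of -5.34 with SE 0.84, edgeR adjusted p = 0.0143). Both DMSO libraries of this gene were high and both DMXAA libraries near 0, with no overlap. Cd79b, a signalling chain of the receptor, fell by 4.53 and the tetraspanin gene Cd37 by 3.10. The partner chain Cd79a did not pass the test: it was at 13.7 and 12.1 CPM in the DMSO libraries and 3.58 and 9.07 CPM in the DMXAA libraries (a log2 change of -1.05 with SE 0.39, adjusted p = 0.52), with the second DMXAA library near the DMSO libraries. The inhibitory lectin Cd22 was at 3.2 and 2.32 against 0.339 and 1.17 CPM (adjusted p = 0.485).

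Antibody genes were among the genes with the largest falls. Their constant regions lie side by side on chromosome 12 of mm10 (Ighg2c at 113285325 to 113288932, Ighd at 113406604 to 113416324, minus strand) and share sequence, so reads may be split between them and single values are uncertain. Ighd, the IgD heavy chain of naive B cells, was at 7.67 and 11.1 CPM in the DMSO libraries and at 0.0968 and 0.41 CPM in the DMXAA libraries (a log2 change of -5.26 with SE 0.64, adjusted p = 0.00848). Ighg2c was at 19.9 and 10.5 CPM in the DMSO libraries and had 0 counts in both DMXAA libraries, which puts it at least 191-fold lower when the group's 0 is taken as 3 counts, a bound that covers counting error only. Ighg2b and Ighg1 fell as well, by 6.44 and 6.39. The IgM chain Ighm, at 46.9 and 27.3 against 0.533 and 0.234 CPM, and the kappa chain Igkc, at 41.4 and 27.8 against 1.6 and 0.234 CPM, did not pass the test (adjusted p = 0.439 and 0.581) although their groups were far apart. For both, the 2 wild-type DMSO libraries, which enter the shared estimate of spread, differed more than 10-fold, with 17.2 and 1.28 CPM for Ighm.

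Most single V segments, the parts of antibody genes joined anew in each B cell, were too low to test. Their number was counted after the values above had been seen. Of 218 annotated immunoglobulin V genes, 89 and 66 had a count in the DMSO libraries, 44 of them in both, for 692 and 438 counts in all. In the DMXAA libraries 5 and 8 V genes had a count, none of them in both libraries, for 35 and 12 counts. The wild-type libraries had 37, 9, 12 and 10 V genes with a count. The V genes with most counts differed between the 2 DMSO libraries: Igkv6-20 had 43 counts in replicate 1 and 0 in replicate 2, Ighv6-3 41 and 0, and Igkv1-110 22 and 33. T cell receptor V genes had 13 and 10 counts over 8 and 7 of 144 genes with DMSO, and 2 and 0 counts with DMXAA.

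Transcription factors that set B cell identity were lower too. Pax5, which commits progenitors to the B lineage, was at 1.93 and 2.66 CPM in the DMSO libraries and at 0 and 0.0585 CPM in the DMXAA libraries (a log2 change of -6.13 with SE 1.08, adjusted p = 0.0286). Spib, an Ets factor, fell by 4.98, and Pou2af1, a co-activator of antibody genes, by 3.87. Ebf1, which works with Pax5 but is also made by stromal cells and pericytes, was at 2.47 and 3.79 against 3.78 and 2.52 CPM, with overlapping groups. Below the receptor, the kinase genes Blk and Btk fell by 5.92 and 3.19, and Rasgrp2, which activates the GTPase Rap1, by 3.87. The survival receptors that bind BAFF, Tnfrsf13c and Tnfrsf13b, fell by 3.35 and 4.18.

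Fc receptor relatives and inhibitory lectins of B cells completed this group. Fcmr, the receptor for IgM, was at 4.33 and 4.36 CPM in the DMSO libraries and at 0.436 and 0 CPM in the DMXAA libraries (a log2 change of -4.16 with SE 0.56, adjusted p = 0.00848). This call held in 6 of the 8 fits that left out a library, as did that of Ighd, and no lower gene held in more. Fcrla and Fcrl1 fell by 6.54 and 4.19, Siglecg by 6.26 and Ly6d, a surface marker of B cell progenitors, by 5.81.

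Antigen presentation split into 2 sets. Ciita, the master regulator of class II MHC genes, was at 4.67 and 4.42 CPM in the DMSO libraries and at 0.726 and 0.234 CPM in the DMXAA libraries (a log2 change of -3.16 with SE 0.46, adjusted p = 0.0131). H2-Ob, which restrains peptide loading in B cells, fell by 4.35, H2-DMb2, a chain of the loading catalyst, by 4.50 and the class II gene H2-Eb2 by 4.70. The main class II genes did not pass the test. H2-Aa was at 32.3 and 32.8 CPM in the DMSO libraries and at 26.1 and 39.7 CPM in the DMXAA libraries, and Cd74, the invariant chain, at 122 and 149 against 125 and 183 CPM. For H2-Aa, H2-Ab1, H2-Eb1 and Cd74 the DMXAA replicate 1 was the lowest or next to lowest and replicate 2 the highest of the 4 libraries, and adjusted p was 0.931 or more.

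Genes used by lymphocytes in general were lower as well. Coro1a, an actin regulator of leukocytes, was at 14.1 and 14.4 CPM in the DMSO libraries and at 3.05 and 3.86 CPM in the DMXAA libraries (a log2 change of -2.05 with SE 0.31, adjusted p = 0.0148). Sash3, an adaptor of lymphocyte signalling, was at 6 CPM in both DMSO libraries and at 0.242 and 0.702 CPM in the DMXAA libraries, and fell by 3.71. Arhgap45, a GTPase-activating protein of blood cells, fell by 3.44, Rasal3 by 1.71 and Gimap3 by 3.34. Sh2d2a, an adaptor of T cells, fell by 5.72. Other lower genes were Mzb1, an endoplasmic reticulum protein of antibody-secreting cells (fell by 2.67), Arhgap4 (by 2.74), Fam169b (by 4.13) and Ifi209 (by 2.79), a member of a family of DNA-binding proteins with near-identical neighbours on chromosome 1.

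As a description, in the B cell marker list 9 of 16 tested members fell and none rose (0.211% and 0.164% of all genes), with 2 more too low to test. The median log2 fold change was -4.52, beside -0.00 over all genes, and 15 of the 16 had lower DMXAA libraries without overlap, beside 17.7% of all genes. These members do not count as support, since 30 of the 36 lower genes had a mean under 1 CPM in each of the other 3 groups and passed the filter on low counts mainly through the knockout-labelled DMSO libraries. In the plasma cell list 4 of 11 tested members fell. Its member Xbp1, which secretory cells of other kinds also make, was at 491 and 558 against 463 and 537 CPM. Of 18 T and NK cell markers 7 were tested. None was called by the main edgeR fit (all 8 libraries, filtered), DESeq2 or limma-voom, with 4 lower at an unadjusted p under 0.05. On the 4 knockout-labelled libraries edgeR called Trbc2, a T cell receptor constant region, lower (adjusted p = 0.0288), as it did without a filter and with replicate number in the fit. The NK cell markers Nkg7, Klrb1c and Ncr1 were at 0 in all 4 libraries. Cd3e, a chain of the T cell receptor complex, was nearest in the main fit, at 1.33 and 1.25 against 0 and 0.117 CPM (a log2 change of -4.43 with SE 0.96, adjusted p = 0.0522). Without a filter edgeR called Cd3e lower.

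The lower genes were also set beside the wild type, as a description, since their choice and the filter favoured genes high in the knockout-labelled DMSO libraries. Summed over the 36 genes, knockout-labelled DMSO libraries had 173 and 160 CPM and the DMXAA libraries 11.4 and 14.5 CPM, and 37.1, 14.7, 24.9 and 22.2 CPM in the wild-type DMSO and DMXAA libraries. In 35 of the 36 genes both knockout-labelled DMSO libraries lay above the other 6 libraries, the exception being Ifi209. In 33 of 36 the DMXAA libraries lay at or below the higher wild-type DMSO library. The B cell marker sum was 149 and 125 CPM in the DMSO libraries, 11.9 and 15.3 CPM in the DMXAA libraries, and 51.5, 8.22, 8.29 and 11.6 CPM in wild-type libraries. In bulk RNA fewer cells of a type and less RNA per cell cannot be told apart. The labels name no preparation batch, so a difference between preparations and an effect of the compound cannot be told apart either.

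The 28 higher genes, all protein coding, were led by receptors of endothelial cells. Kdr, the main signalling receptor for VEGF (chromosome 5, 75932827 to 75978458, minus strand), was at 115 and 116 CPM in the DMSO libraries and at 243 and 209 CPM in the DMXAA libraries (a log2 change of 0.97 with SE 0.15, adjusted p = 0.0151). Flt1, the decoy-like second VEGF receptor, was at 153 and 124 against 323 and 244 CPM (a log2 change of 1.04 with SE 0.18, adjusted p = 0.0314). In both genes both DMXAA libraries lay above both DMSO libraries, and DMXAA replicate 1 above replicate 2, as in 21 of the 28 higher genes. The co-receptor Nrp1 rose by 1.09 and Plxnd1, its semaphorin-binding partner, by 1.07. The second neuropilin, Nrp2, was at 21.5 and 21.4 against 41.3 and 36.2 CPM and just missed the threshold (a log2 change of 0.85, adjusted p = 0.0597), as did the endothelin receptor gene Ednrb, at 98.3 and 100 against 163 and 152 CPM (adjusted p = 0.0597). The ligand Vegfa was at 649 and 657 against 597 and 546 CPM (a log2 change of -0.19, adjusted p = 0.884).

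Other endothelial surface genes followed. Cd93, a lectin-like receptor of angiogenic vessels, was at 23.1 and 22.6 against 54.2 and 42.7 CPM (a log2 change of 1.08 with SE 0.19, adjusted p = 0.0314). Its matrix ligand Mmrn2 rose by 0.88 and the sialomucin gene Podxl by 0.93. S1pr3, a sphingosine 1-phosphate receptor, was at 24.9 and 25.4 against 47.4 and 47.6 CPM, the tightest of these pairs (a log2 change of 0.92 with SE 0.15, adjusted p = 0.024). Mcam, an adhesion molecule of endothelium and pericytes, rose by 0.85, Plpp3, which degrades lysophosphatidic acid, by 0.87, and Lrrc32, which anchors latent TGF-beta, by 0.94. Jag1, a Notch ligand, was at 12.6 and 11.8 against 31 and 22.9 CPM (a log2 change of 1.15 with SE 0.21, adjusted p = 0.0399). It was the only one of 15 Notch pathway genes to pass the test. The arterial ligand Dll4 was at 33.2 and 22.3 against 47.8 and 45.4 CPM (adjusted p = 0.206), and the groups overlapped for the target genes Hes1 (19.1 and 21.1 against 17.8 and 20.9 CPM) and Hey1 (15.2 and 13.2 against 12.2 and 17 CPM).

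In the endothelial marker list all 24 members were tested, 5 rose and none fell (0.164% and 0.211% of all genes). All 24 had positive fold changes, with a median of 0.68 beside -0.00 over all genes, and 23 had higher DMXAA libraries without overlap, beside 18.1% of all genes. Pecam1, which encodes the junction protein CD31, was at 64 and 58.1 against 102 and 94 CPM (a log2 change of 0.68, adjusted p = 0.0663), and Vwf at 10.2 and 11.3 against 20.3 and 18.7 CPM (a log2 change of 0.86, adjusted p = 0.0703). The list's sum was 1034 and 941 CPM in the DMSO libraries and 1737 and 1590 CPM in the DMXAA libraries, and 1112, 1419, 981 and 1009 CPM in wild-type libraries. Of the VEGF, angiopoietin and apelin list 3 of 18 tested members rose, with a median of 0.68. DESeq2 called 9 of the 24 endothelial markers higher, beside 94 of all 17055 genes, and limma-voom none.

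Genes of the basement membrane and of matrix remodelling formed the next set. Col4a1 and Col4a2, the paired collagen IV genes that adjoin head to head on chromosome 8 (11198423 to 11449287 over both), were at 181 and 172 against 315 and 307 CPM, and at 142 and 126 against 226 and 239 CPM (log2 changes of 0.82 and 0.79 with SE 0.15 each, adjusted p = 0.0388 and 0.0458). The laminin chains Lama4 and Lamb1 rose by 1.01 and 0.91, the collagen chaperone gene Serpinh1 by 0.76, and Sparcl1 and Tgfbi, both matrix-associated proteins, by 0.82 and 0.97. Thbs1, a matrix inhibitor of angiogenesis, was at 131 and 121 against 294 and 218 CPM (a log2 change of 1.02 with SE 0.17, adjusted p = 0.024). The proteoglycan-cleaving proteases Adamts1 and Adamts4 rose by 1.02 and 1.13, the serine protease gene Prss23 by 1.46, and Chst15, which sulfates chondroitin chains, by 1.20.

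The largest rise was that of Kcnj2 (chromosome 11, 111066164 to 111076821, plus strand), an inward-rectifier potassium channel. It was at 6.27 and 5.15 CPM in the DMSO libraries and at 32.1 and 15.4 CPM in the DMXAA libraries (a log2 change of 2.07 with SE 0.33, adjusted p = 0.0286), so the groups were apart but the DMXAA libraries differed about 2-fold from each other. Dlc1, a GTPase-activating protein, rose by 1.27, Axl, a receptor tyrosine kinase of vascular and phagocytic cells, by 1.04, and Lrp1, a large endocytic receptor, by 0.86. Dusp6, the ERK phosphatase, was at 43.2 and 32.8 against 76.6 and 69.9 CPM and missed the threshold (a log2 change of 0.95 with SE 0.19, adjusted p = 0.0597).

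The higher genes were set beside the wild type in the same way, as a description. Their choice favoured genes low in the knockout-labelled DMSO libraries and high in the DMXAA libraries. The share of all genes placed as counted below was not computed. Summed over the 28 genes, the level was 1389 and 1280 CPM in the DMSO libraries and 2714 and 2440 CPM in the DMXAA libraries, against 1731 and 1984 CPM in wild-type DMSO and 1416 and 1569 CPM in wild-type DMXAA libraries. In 25 of 28 genes both knockout-labelled DMSO libraries lay below both wild-type DMSO libraries. In 21 of 28 the DMXAA libraries lay above both wild-type DMSO libraries, and in 19 above all 6 other libraries. The acinar and B cell marker sums were lower in the same DMXAA libraries, and their part in these rises cannot be told apart from the treatment.

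Markers of other cells that surround islet capillaries had mostly positive values, but none was called by the main edgeR fit. Of 16 stellate cell and fibroblast markers 15 were positive, 2 members were under 0.05 unadjusted, and the median log2 change was 0.88. Col6a2, a chain of collagen VI, was nearest (6.27 and 6.45 against 15.3 and 12.6 CPM, adjusted p = 0.0597) and was the 1 stellate marker that DESeq2 called. Without a filter edgeR called Col6a2 as well. Col1a1 was at 20.5 and 23.8 against 60.8 and 46.7 CPM, and its wild-type DMSO libraries, at 83 and 29.7 CPM, lay further apart from each other (a log2 change of 1.28 with SE 0.69, adjusted p = 0.812). On the 4 knockout-labelled libraries alone edgeR called 2 stellate markers, Col1a1 (a log2 change of 1.27 with SE 0.19, adjusted p = 0.00621) and Col3a1 (1.24, SE 0.18, adjusted p = 0.0071). That fit called 49 of all 16038 genes higher. Of 10 tested pericyte and smooth muscle markers 8 were positive, with a median of 0.50 and 6 members under 0.05 unadjusted. All 20 tested macrophage markers were positive with a median of 0.48 and 4 members under 0.05 unadjusted, but the DMXAA libraries differed from each other: the sum was 149 and 147 CPM in the DMSO libraries and 153 and 264 CPM in the DMXAA libraries. Adgre1, the F4/80 antigen of macrophages, was at 3.33 and 4.36 against 4.41 and 7.49 CPM (adjusted p = 0.785).

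**Figure D3:**
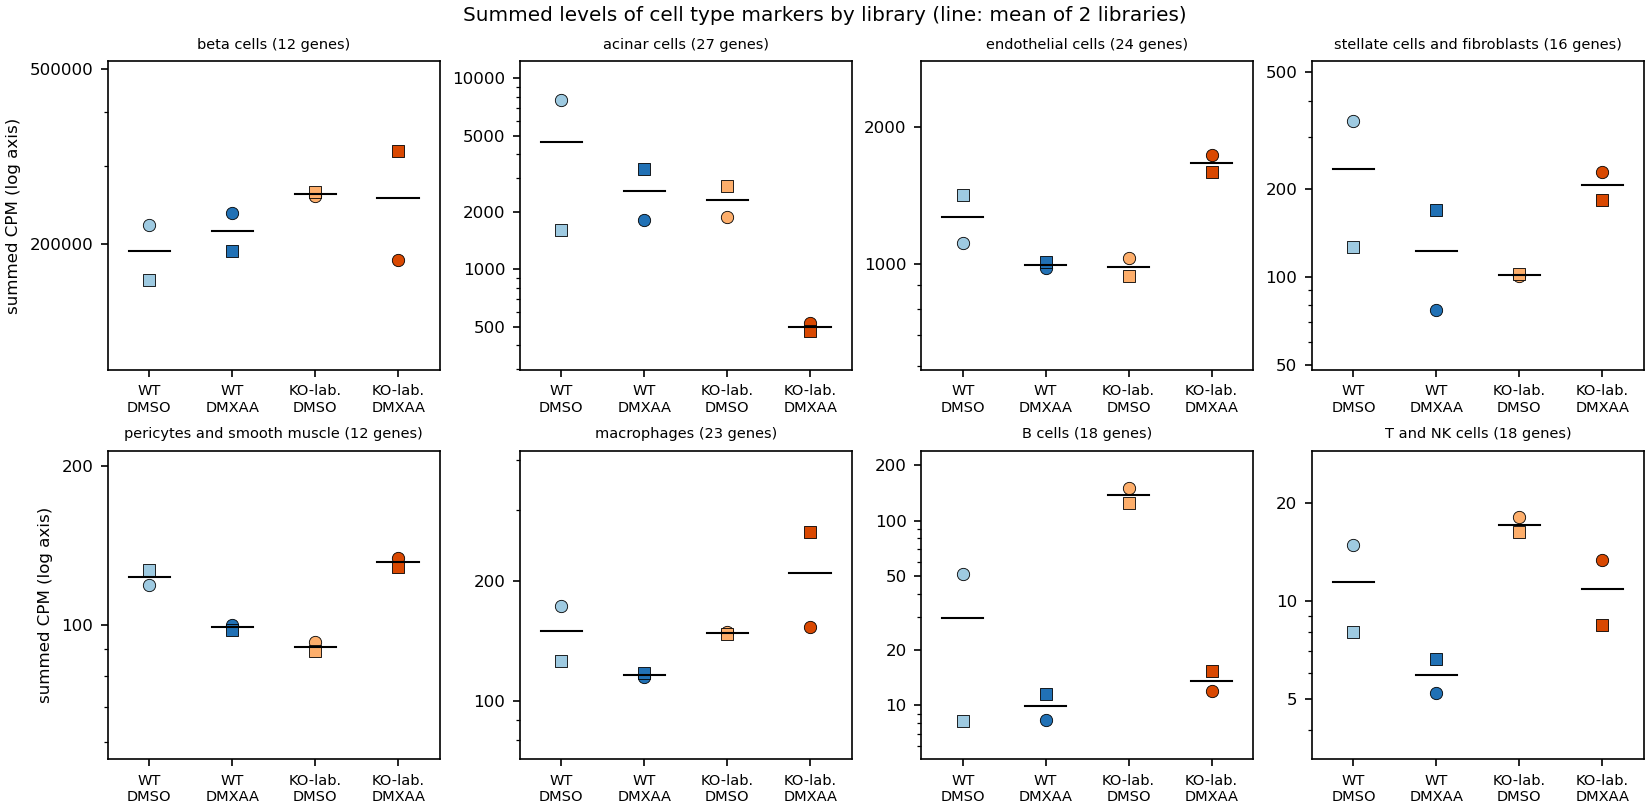
Summed level of 8 cell type marker lists in every library, in CPM on log axes that differ between panels; circles are replicate 1, squares replicate 2, lines group means. In the knockout-labelled groups the acinar, B cell and T and NK cell sums are lower and the endothelial, stellate, pericyte and macrophage sums higher with DMXAA without overlap, while the beta cell sum of the 2 DMXAA libraries lies on either side of the DMSO libraries.

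Acinar genes, which encode the digestive enzymes of the exocrine pancreas, were all lower with DMXAA, yet whether they passed a test depended on the libraries in the fit. Their sum was 1878 and 2738 CPM in the DMSO libraries and 522 and 477 CPM in the DMXAA libraries, against 7656, 1609, 1809 and 3349 CPM in the wild-type libraries. All 24 tested members had negative fold changes, with a median of -2.73, and 23 had lower DMXAA libraries without overlap, beside 17.7% of all genes. None was called by edgeR over all 8 libraries, with 15 under 0.05 unadjusted, or by limma-voom. DESeq2 called 6 members lower, beside 60 of all 17055 genes. On the 4 knockout-labelled libraries alone edgeR called 22, all lower, beside 80 of all 16038 genes tested there. The count of acinar genes called by edgeR thus differed between the fit of all 8 libraries and that of the 4 knockout-labelled libraries. It also changed when either wild-type DMSO library was left out, with the other wild-type libraries kept in the fit. The acinar sums of the wild-type DMSO libraries lay far apart, at 7656 and 1609 CPM, but the part of this spread was not tested. None of the 27 members was at 0 in all 4 knockout-labelled libraries. Cpa1, a carboxypeptidase, was at 74.4 and 135 against 14.4 and 16.5 CPM (a log2 change of -2.77 with SE 0.90, adjusted p = 0.616), and the elastase gene Cela2a at 115 and 207 against 14.5 and 20.5 CPM. Bhlha15, a secretory cell transcription factor also found outside acini, was at 69.2 and 74.3 against 62.7 and 73.9 CPM. Acinar content thus moved with the treatment groups in these 4 libraries, and its part in the other differences cannot be told apart from the treatment. With the log2 acinar sum as a covariate 6 genes were called, all higher, 3 of them stellate collagens (Col1a1, Col1a2 and Col3a1) and 0 of them among the 64. All 64 kept their direction in that fit, with a median log2 change of 0.84 for the 28 higher genes (0.99 without the covariate) and -2.86 for the 36 lower ones (-4.27).

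The interferon response, the best known output of DMXAA, was examined gene by gene. Of 52 interferon-stimulated genes none was called in the knockout-labelled libraries by edgeR. At an unadjusted p under 0.05, 5 were above and 1 below, beside 4% and 3.3% of all genes. The list leaned upward, with 37 of 52 fold changes positive (71.2%, beside 49.9% of all genes). DESeq2 and limma-voom called none of them either. The median log2 fold change was 0.22, and 13 members lay higher without overlap (18.1% of all genes did). Their sum was 858 and 731 CPM in the DMSO libraries and 934 and 763 CPM in the DMXAA libraries. The mitochondrial nucleotide kinase gene Cmpk2 was at 22.1 and 17.3 against 24.3 and 25.9 CPM (a log2 change of 0.35, adjusted p = 0.679), and the ubiquitin-like modifier gene Isg15 at 3.87 and 1.53 against 2.76 and 5.38 CPM (adjusted p = 0.848). Nearest to the threshold was Slfn5, at 13.2 and 9.8 against 19 and 17.4 CPM (a log2 change of 0.67 with SE 0.20, adjusted p = 0.267).

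Of 24 tested cytokines and chemokines none was called by the main edgeR fit (all 8 libraries, filtered). At an unadjusted p under 0.05, 2 were above, and 13 were positive and 11 negative. DESeq2 called 1, the stromal chemokine Cxcl12, at 6.6 and 8.49 against 21.4 and 16.9 CPM (a log2 change of 1.34 with SE 0.28, edgeR adjusted p = 0.0663), and limma-voom none. On the 4 knockout-labelled libraries alone edgeR called Cxcl12 higher, as it did without a filter and with replicate number in the fit. The T cell attractant Cxcl10 was at 9.34 and 5.89 against 5.71 and 5.44 CPM (a log2 change of -0.44 with SE 0.39, adjusted p = 0.92), and Ifnb1, interferon beta, gave 1 and 0 counts in DMSO libraries, then 3 and 0 in DMXAA libraries. Il6 was at 36.7 and 34.4 against 53.8 and 35.4 CPM (adjusted p = 0.921). Genes of NF-kB signalling leaned the other way: 18 of 20 were negative with a median of -0.27, 14 lay lower without overlap (17.7% of all genes did) and 4 were under 0.05 unadjusted, with 0 called by edgeR, DESeq2 or limma-voom. Relb, a subunit, was at 26.2 and 24.1 against 19.5 and 16.7 CPM (a log2 change of -0.47, adjusted p = 0.485), and the inhibitor Nfkbia at 83.3 and 84.6 against 76.8 and 73.4 CPM (a log2 change of -0.16, adjusted p = 0.917).

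Pathways that small molecules often engage apart from STING had no gene called by the main edgeR fit or limma-voom. Of 7 tested genes of the aryl hydrocarbon receptor, which senses planar aromatic compounds, none was called by edgeR and 1 was under 0.05 unadjusted; the sensitive target Cyp1a1 was at 22.7 and 19.8 against 22.3 and 39.3 CPM (a log2 change of 0.53 with SE 0.32, adjusted p = 0.814). Of 18 oxidative stress and metallothionein genes none was called by the main edgeR fit, 13 were negative and 4 of these were under 0.05 unadjusted. The metal-binding gene Mt2 was nearest, at 57.3 and 51 against 30.1 and 26.5 CPM (a log2 change of -0.94 with SE 0.19, adjusted p = 0.0644). DESeq2 called Mt2 lower, as did edgeR on the 4 knockout-labelled libraries, without a filter and with replicate number in the fit. Heme oxygenase, Hmox1, was at 580 and 638 against 378 and 481 CPM (adjusted p = 0.59). In the wild type Mt2 fell by 1.14 (adjusted p = 0.00908), and the difference between the labels was 0.20 (SE 0.28, adjusted p = 0.886).

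Of 22 integrated stress response genes none was called by the main edgeR fit, 15 were negative and 9 lay lower without overlap (17.7% of all genes did). At an unadjusted p under 0.05, 4 were lower and 1 higher. Ddit3, which encodes the transcription factor CHOP, was at 189 and 197 against 101 and 130 CPM (a log2 change of -0.74 with SE 0.16, adjusted p = 0.0742; called by DESeq2), and its target Trib3 at 131 and 128 against 79.9 and 95.5 CPM (adjusted p = 0.17). The wild-type DMSO libraries had 87.3 and 106 CPM of Ddit3, closer to the knockout-labelled DMXAA than DMSO libraries. Of 28 immediate early genes none was called by the main edgeR fit, 18 were positive, and 5 were higher and 2 lower at an unadjusted p under 0.05. The groups lay apart in 11 higher and 2 lower members (18.1% and 17.7% of all genes), and edgeR on the 4 knockout-labelled libraries called Fosb higher. The nuclear receptor gene Nr4a2 was at 56.2 and 71.9 against 38 and 32.8 CPM (adjusted p = 0.121). It was called lower by DESeq2, by edgeR on the 4 libraries and by edgeR without a filter. Of 12 tested mitochondrially encoded mRNAs 11 were negative with a median of -0.48, and 9 lay lower without overlap (17.7% of all genes did), with 5 under 0.05 unadjusted and none called by edgeR over all 8 libraries. The complex I gene mt-Nd4 was at 1011 and 1315 against 844 and 731 CPM (a log2 change of -0.56 with SE 0.18, adjusted p = 0.335), while mt-Atp6 was high in 1 DMXAA library, at 15.9 and 14.5 against 11.9 and 66.1 CPM.

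No islet hormone or identity gene passed the test. Ins2 was at 169331 and 177800 CPM in the DMSO libraries and at 120459 and 213638 CPM in the DMXAA libraries (a log2 change of -0.06 with SE 0.31, adjusted p = 0.994), and Ins1 at 51033 and 46768 against 35562 and 72474 CPM (a log2 change of 0.14 with SE 0.30, adjusted p = 0.982). In both, the DMXAA libraries lay on either side of the DMSO libraries, and the sign of either fold change turned when 1 of the DMXAA libraries was left out. Glucagon mRNA, Gcg, was at 19284 and 21229 against 18728 and 24607 CPM, and Sst at 1749 and 2142 against 1508 and 2402 CPM. Ppy, pancreatic polypeptide, was at 1020 and 1119 against 1138 and 3065 CPM, high in DMXAA replicate 2 alone (adjusted p = 0.674).

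Of 19 tested islet transcription factors, 35 genes of insulin secretion, 12 beta cell and 8 alpha cell markers none was called by edgeR, DESeq2 or limma-voom, with 2 secretion genes above at an unadjusted p under 0.05. Pax6 was at 388 and 367 against 371 and 338 CPM (a log2 change of -0.09 with SE 0.15) and Pdx1 at 99.8 and 107 against 106 and 152 CPM (a log2 change of 0.32 with SE 0.20, adjusted p = 0.82). List medians lay between 0.02 and 0.15. The beta cell sum was 256462 and 262246 CPM in the DMSO libraries and 183583 and 325859 CPM in the DMXAA libraries.

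**Figure D4:**
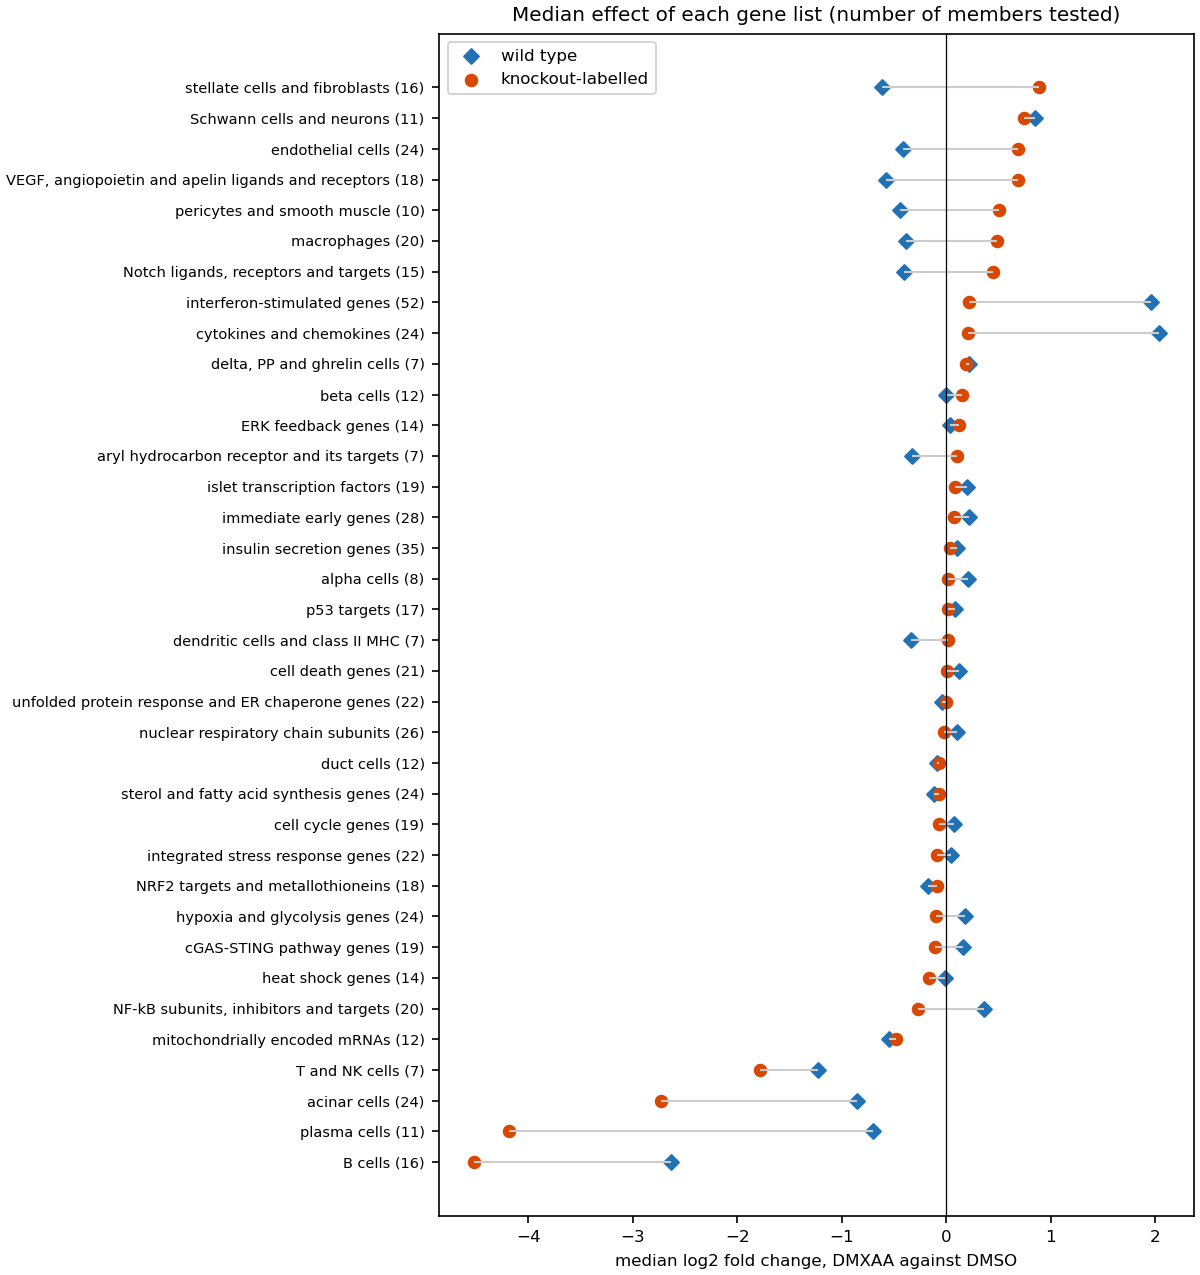
Median log2 fold change with DMXAA of each gene list in wild-type (diamonds) and knockout-labelled (circles) libraries, with the number of members tested. Interferon and cytokine lists have medians of 1.96 and 2.04 in the wild type and 0.22 and 0.21 under the knockout label, while vascular and stromal lists lie on opposite sides of 0 and B cell and acinar lists are negative in both.

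Whether the effect of DMXAA differed between the genotype labels was tested directly, over 4 libraries against the other 4. In wild-type libraries 253 genes changed (1.48%), 189 higher (1.11%) and 64 lower (0.375%), and the effect differed between labels in 204 (1.2%). The first count was 994 without wild-type DMSO replicate 2 and 160 to 168 without 1 of the other 3 wild-type libraries, and the second was 94 and 87 without knockout-labelled DMSO replicate 1 or 2 and 117 without wild-type DMXAA replicate 1. Among the 28 genes higher under the knockout label, 22 had a negative fold change in the wild type and 20 differed between labels. Of all genes 0.668% had a more positive effect under the knockout label. The 28 were chosen by their knockout-labelled effect, which is part of this difference, so the counts are a description and no support. Kcnj2, Thbs1, Kdr, Dlc1 and Jag1 were called in opposite directions: in the wild type Kdr was at 166 and 185 against 101 and 108 CPM, and the effects differed by 1.71 (SE 0.21, edgeR adjusted p = 0.000687). For Kcnj2 the wild-type values were 22.1 and 22.4 against 2.53 and 4.32 CPM, the reverse of the knockout-labelled order, and the difference was 4.76 (SE 0.48, adjusted p = 0.000399). Podxl was the 1 gene of the 28 that rose under both labels, by 1.03 in the wild type and 0.93 here, with a difference of -0.10 (adjusted p = 0.927).

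Endothelial markers differed between labels in 11 of 24 cases, all with the more positive effect under the knockout label, as 0.668% of all genes had. Their median was -0.41 in the wild type and 0.68 here. Egfl7, a secreted endothelial protein, was at 33.5 and 50.7 against 12.4 and 16.7 CPM in the wild type and at 51.1 and 40.6 against 60.9 and 46.8 CPM under the knockout label, so its difference of 1.76 (SE 0.32, adjusted p = 0.0125) came with almost no movement here (a log2 change of 0.23). Interferon-stimulated genes differed in 29 of 52 cases, all with the less positive effect under the knockout label (0.528% of all genes), and cytokine genes in 8 of 24, of which 1, Cxcl12, had the more positive effect here (difference 2.39, adjusted p = 0.00865).

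Of the 36 lower genes, 32 had a negative fold change in the wild type as well, none was called lower there, and the median over the 36 was -1.89. Ighg2c, Ifi209 and Arhgap4 differed between labels. Ifi209 went from 1.26 and 0.59 with DMSO to 13.5 and 11.9 CPM in wild-type libraries and from 2.53 and 2.66 to 0.533 and 0.176 CPM here, a difference of -6.58 (SE 0.62, adjusted p = 0.000116). For Ms4a1 the wild-type values were 1.26 and 0 against 0.162 and 0 CPM, and the difference of -2.49 had an SE of 2.49 (adjusted p = 0.824), so at these counts a difference between labels was not detectable.

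**Figure D5:**
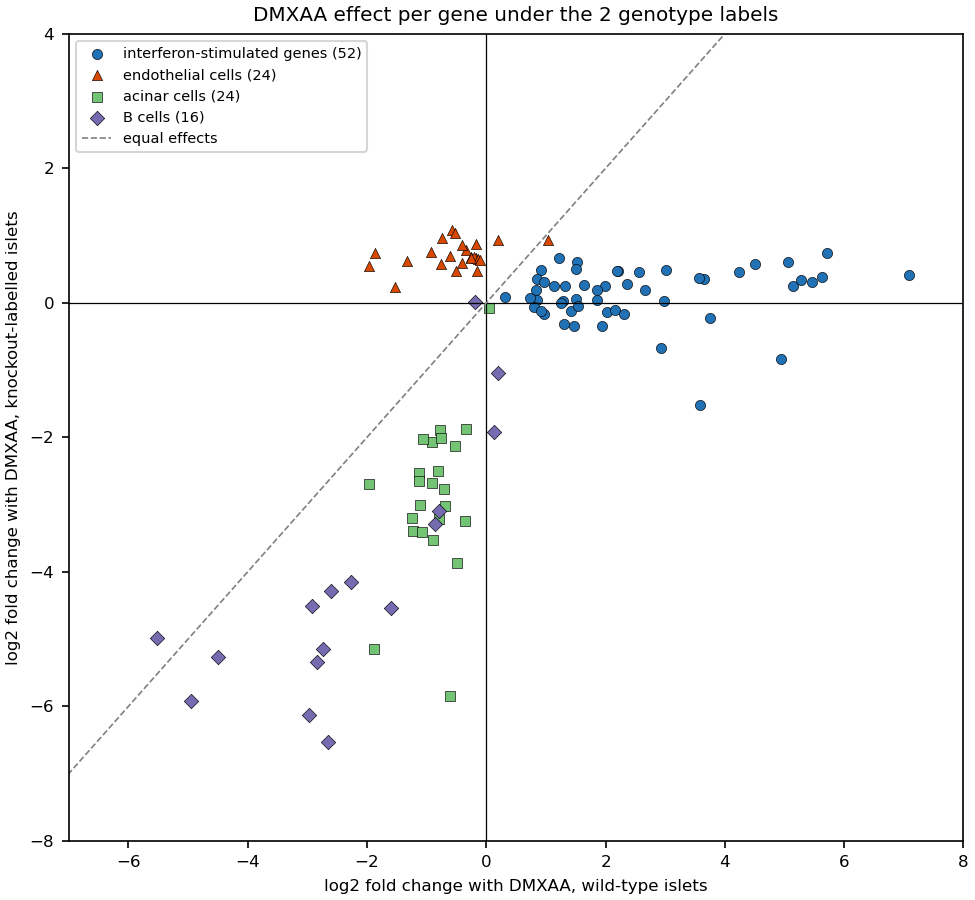
Log2 fold change with DMXAA in wild-type (x axis) against knockout-labelled libraries (y axis) for the tested members of 4 lists; the dashed line marks equal effects. Interferon-stimulated genes spread to the right near 0 on the y axis, endothelial markers lie mostly in the upper left, and acinar and B cell markers mostly in the lower left.

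The limits lie in the libraries. The count of 64 was 3 without knockout-labelled DMSO replicate 1, 6 without its replicate 2, 14 and 21 without DMXAA replicate 1 or 2, and 116 and 129 without wild-type DMSO replicate 1 or 2. The call of Kdr held in 5 of these 8 fits, those of Kcnj2 and Ms4a1 in 4, and that of Col4a1 in 2.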

How the data were processed

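Poly(A) RNA of islets was sequenced as paired reads in 8 libraries. The authors deposited 1 table per library of raw read counts per gene, made with HISAT2, HTSeq and mm10 per the submitters' processing notes. The counter's strand setting and annotation release were not given in the sources used here. Overlapping, antisense and near-identical genes are therefore uncertain. Symbols were matched through GENCODE M21 for 54495 of 54532 identifiers.

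Groups came from the labels. Counts were filtered with edgeR's filterByExpr (minimum count 10, total 15), scaled by TMM and fitted in 1 quasi-likelihood model with a coefficient per group (edgeR 4.0.16 in R 4.3.3, robust), which left 4 residual degrees of freedom and a biological coefficient of variation of 17.1%. Contrasts were DMXAA minus DMSO per genotype label, which share no library, and their difference. P-values were adjusted by Benjamini-Hochberg over 17055 genes, with a threshold of 0.05. Scripts were tested on simulated data. There 50 of 100 genes changed 2-fold and 91 of 100 changed 4-fold were recovered, and 15 of 156 calls were false. Summed levels are CPM after TMM.

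Members, lists and alternatives (DESeq2 1.42.0, limma 3.58.1, other filters and scaling, an acinar covariate, left-out libraries) were chosen with earlier results of these data known. Named genes were the 12 largest rises and falls among called genes at 1 CPM or more, the 10 smallest p-values, up to 4 genes of each list with the smallest p, and a fixed set of markers; other genes, and the tally of receptor V genes, were chosen after their values were seen. Some results for single genes are not reported here.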

Additional observations from a re-analysis of the deposited data

Results flagged for a closer look

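For 37 of the genes named, the effect of DMXAA differed between the knockout-labelled and the wild-type libraries by edgeR's test of the difference itself (adjusted p under 0.05 over all genes). Of all 17055 genes 204 (1.2%) did. Many genes were named for a large or low-p effect under the knockout label, which is part of this difference. The count of 37 thus also reflects how genes were chosen. The values below are the knockout-labelled log2 fold change minus the wild-type one.

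The difference was negative for genes of the interferon and NF-kB responses, which rose in the wild type. It was -7.12 for the chemokine Cxcl10, -4.46 for Isg15, -3.29 for Cmpk2 and -6.58 for Ifi209. For the NF-kB inhibitors Tnfaip3 and Nfkbia it was -2.69 and -1.78, and for Zfp36, which destabilises cytokine mRNAs, -1.22. Tnfaip3 was at 15.3 and 14.4 against 76.9 and 63.3 CPM in the wild type and at 19.1 and 21.5 against 16.8 and 12.7 CPM under the knockout label.

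It was positive for vascular receptors and surface genes: Kdr 1.71, Flt1 1.55, Nrp1 1.78, Nrp2 1.40, Plxnd1 1.55, Ednrb 1.37, S1pr3 1.36, Cd93 1.66, Mmrn2 1.05, Vwf 1.27, Egfl7 1.76, and the Notch ligands Jag1 2.35 and Dll4 1.69. For matrix genes and proteases it was 1.04 for Col4a1, 1.38 for Lama4, 1.04 for Sparcl1, 1.59 for Tgfbi, 2.14 for Thbs1, 1.21 for Adamts1, 2.08 for Prss23 and 1.69 for Chst15. For the potassium channel Kcnj2 it was 4.76, for Dlc1 2.53, for the phosphatase Dusp6 3.10, for Lrp1 1.17, for Plpp3 1.23 and for the chemokine Cxcl12 2.39.

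Ahr, the aryl hydrocarbon receptor itself, was at 4.4 and 6.23 against 10.8 and 6.55 CPM under the knockout label and at 12.7 and 9.3 against 4.52 and 4.94 CPM in the wild type, and differed by 1.92 (SE 0.42, adjusted p = 0.0415). Ighg2c differed by -14.01 and Arhgap4 by -2.99. The value for Ighg2c comes from libraries with 0 counts, depends on the prior count and is no bound.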

How the results depend on the processing

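The count of 64 genes in the knockout-labelled libraries was 64 with RLE scaling, 154 with DESeq2 (94 higher, 60 lower), 29 with edgeR's older quasi-likelihood form (16 higher, 13 lower), 177 with no filter on low counts, 129 with the 4 libraries of the label alone (49 higher, 80 lower), 6 with the acinar sum as covariate, 0 with limma-voom and 0 with the stricter filter, and 3 to 129 without 1 library. Of the 64 genes 55 remained with DESeq2, 62 with the 4 libraries alone and 0 with the acinar covariate, where all 64 kept their direction and the median log2 change was 0.84 for the higher genes and -2.86 for the lower ones. The wild-type count of 253 was 160 to 994 without 1 library, and the count of 204 differing genes was 312 with DESeq2 and 87 to 304 without 1 library. Deviations between replicates of the same number were little correlated across treatments (0.0391 in knockout-labelled and 0.0422 in wild-type libraries). With 2 libraries a group this cannot tell whether replicate numbers pair the samples. With the replicate block the counts were 96, 299 and 246.

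Some values near 0 turned sign. With the acinar covariate the log2 fold change was 0.36 for Cxcl10, 0.27 for Ins2, -0.12 for Pdx1, -0.18 for Egfl7, -0.12 for H2-Ab1 and 0.15 for Cd22, with limma-voom -0.028 for H2-Aa and -0.060 for H2-Ab1, and with the replicate block -0.014 and -0.031. Without 1 library it ran from -0.44 to 0.57 for Ins1, -0.51 to 0.30 for Ins2, -0.094 to 0.29 for Gcg, -0.30 to 0.29 for H2-Aa, -0.50 to 0.44 for H2-Ab1, -0.41 to 0.28 for H2-Eb1, -0.093 to 0.44 for Cd74, -0.0016 to 0.62 for Il6 and -0.34 to 2.13 for mt-Atp6. The cause was not tested. At this depth 4 of the 36 lower genes had a mean under 1 CPM over the 4 libraries.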

Other observations

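Several pathways outside the comparisons above had no gene called by the main edgeR fit or limma-voom in the knockout-labelled libraries. These were 22 unfolded protein response genes (median log2 fold change -0.01, 0 under 0.05 unadjusted), 14 heat shock genes (-0.17, 0), 24 sterol and fatty acid synthesis genes (-0.07, 0), 24 hypoxia and glycolysis genes (-0.10, 5), 17 p53 targets (0.01, 3) and 19 cell cycle genes (-0.07, 2). DESeq2 called 1 of them, the p53 target Plk2, as did edgeR without a filter. Of 11 Schwann cell and neuron markers 10 were positive with a median of 0.74, beside 0.85 in the wild type, and none was called by edgeR, DESeq2 or limma-voom, with 4 under 0.05 unadjusted. Of 10 neutrophil markers 3 (Ly6g, Retnlg and Elane) were at 0 in all 4 knockout-labelled libraries, and the list's sum was 1.20 and 1.87 in DMSO against 1.07 and 1.70 CPM in DMXAA libraries. Of 8 mast cell markers 6 (Cpa3, Mcpt4, Cma1, Tpsb2, Ms4a2 and Fcer1a) were at 0, and the sum, nearly all from Kit, was 8.40 and 6.17 in DMSO against 11.6 and 7.78 CPM in DMXAA libraries.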
